A study of Mus musculus with 2 samples.

Results

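The let-7 family in the mouse heart was examined here through the 6 of its genes whose mature microRNA has no second numbered copy: Mirlet7b, Mirlet7d, Mirlet7e, Mirlet7g, Mirlet7i and Mir98. They were chosen by gene name in the GENCODE M21 annotation, a rule that uses no values, but with earlier results of these data known. They are 6 of 2202 counted microRNA genes. Hearts of male B6CASTF1/J mice aged 10 days (first-generation hybrids of a laboratory strain and the wild-derived CAST strain) gave 2 small RNA libraries, made from total RNA with an upper size limit. Both form 1 group with no second tissue, age, genotype or treatment. They are called replicates 1 and 2 after the labels, which number them as biological replicates. The labels give each library its own biological sample but both the same donor identifier, so the spread between them may not be that of unrelated animals. In such bulk samples fewer cells of a type and less RNA per cell cannot be told apart.

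A microRNA gene is transcribed as a long precursor, from which a hairpin is cut and then trimmed to mature strands, the 5p strand from the left arm and the 3p strand from the right. Bases 2 to 8 of the mature strand, the seed, do most of the pairing with target messenger RNAs. The let-7 family restrains genes of proliferation and early development, such as Lin28, Hmga2 and Ras genes, and its mature forms build up as tissues differentiate, the heart among them. The RNA-binding proteins LIN28A and LIN28B block the maturation of let-7 precursors in early cells. None of these protein-coding genes was measured in the microRNA tables used here.

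The mature 5p sequences are shown because they define the family and set how well its genes can be told apart. They come from RefSeq (GRCm38.p6), where all 6 genes were matched and the hairpins were identical to the counted GENCODE hairpins. Capitals mark the seed.
let-7i-5p: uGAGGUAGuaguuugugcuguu
let-7g-5p: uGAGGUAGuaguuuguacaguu
let-7d-5p: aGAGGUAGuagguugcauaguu
let-7b-5p: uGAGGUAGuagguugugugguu
let-7e-5p: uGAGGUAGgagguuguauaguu
miR-98-5p: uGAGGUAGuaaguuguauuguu

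All 6 carry the seed GAGGUAG, as do 13 of 1738 mature mouse entries in the RefSeq table, where let-7c-5p and let-7f-5p are each entered once per gene. Apart from let-7 and miR-98 forms, the only such sequence was miR-1961, whose gene had no count in either library (a count of 0 allows up to 0.800 CPM in replicate 1, and up to 0.476 in the deeper replicate 2). CPM stands for counts scaled to a total of 1000000 over the microRNA genes. The differences lie outside the seed. Against let-7a-5p, a duplicated form of the family, and with positions counted from 1 at the 5′ end, let-7e-5p had the single change U9G. let-7g-5p had G12U and U18C, and let-7i-5p shared both and added A17G and A19U. let-7d-5p had U1A and U16C, let-7b-5p A17G and A19G, and miR-98-5p G11A and A19U. Over the 15 pairs of members the number of differing bases ran from 2, for let-7i against let-7g (G17A and U19A), to 6, with a median of 4.

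**Figure D1:**
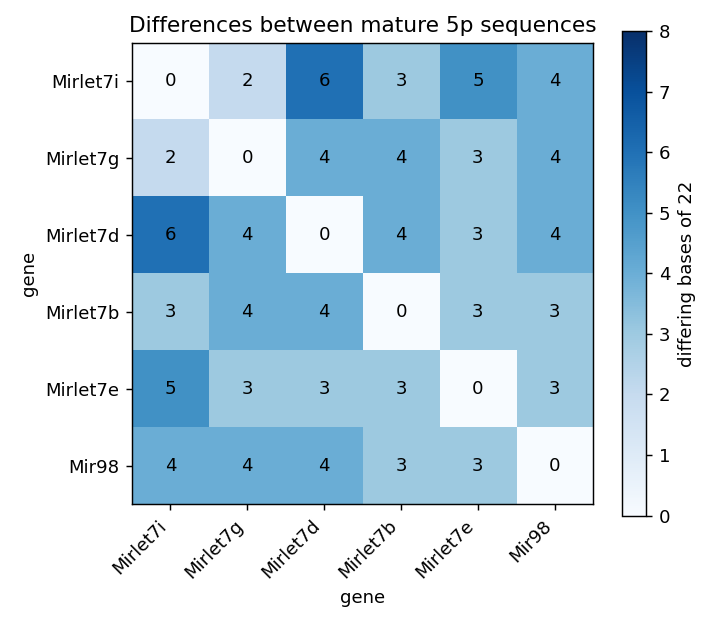
The grid gives, for each pair of the 6 genes on both axes, the number of bases out of 22 that differ between their mature 5p sequences. The 2 most abundant of them, Mirlet7i and Mirlet7g, differ by 2 bases, and the widest pair, Mirlet7i and Mirlet7d, by 6.

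Each 5p and 3p sequence occurred whole in 1 counted hairpin only, whereas the let-7a, let-7c and let-7f 5p sequences each occurred in 2. The first 17 bases were needed to set let-7i-5p, let-7g-5p, let-7b-5p and let-7e-5p apart from every other counted hairpin, 11 sufficed for miR-98-5p, and let-7d-5p was already unique at 10, the shortest length tried. The deposited tables count reads per gene and do not divide them between the arms. The 3p sequences are shown because reads from them enter the same counts while they carry other seeds.
let-7i-3p: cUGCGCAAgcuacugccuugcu
let-7g-3p: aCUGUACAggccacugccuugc
let-7d-3p: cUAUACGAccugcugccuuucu
let-7b-3p: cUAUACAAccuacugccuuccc
let-7e-3p: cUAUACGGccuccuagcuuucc
miR-98-3p: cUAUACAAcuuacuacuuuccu

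The 3p strands fell into 5 seeds, with UAUACAA shared by let-7b-3p and miR-98-3p and the other 4 seeds held by 1 member each. The mature 5p strands were all 22 bases long, so levels were compared between genes as reads per gene, with no scaling by length. How evenly library preparation captured the different sequences was not tested.

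The totals over all microRNA genes were 3748432 counts in replicate 1 and 6305782 in replicate 2, and reads that mapped to several places, 36.8% and 48.1% of all reads, were in no gene's count. A gene is called detected where each library gave it 10 counts or more (340 genes, all 6 members among them). The heart origin was checked on marker microRNAs. The muscle genes Mir208a, Mir208b and Mir499, which sit inside myosin genes, had 794 to 7542 CPM. The 6 neural marker genes had 2 counts in all in each library, with 4 of the 6 at 0 in both. Other markers from outside the heart were not absent. The hepatocyte gene Mir122 had 57.9 and 77.7 CPM in replicates 1 and 2. Of the skeletal muscle genes, Mir206 had 26.9 and 19.5 CPM and Mir133b 1.60 and 1.59 CPM. Mir1a-1, Mir1a-2, Mir133a-1 and Mir133a-2, known as abundant in heart muscle, had 2 to 628 counts in a library, or 0.534 to 99.6 CPM. They are numbered copies, and whether they lack reads that mapped to several places was not tested. Intervals printed here cover counting error only, since amplified reads are not independent molecules. All SDs are over the 2 libraries (n = 2). Where a pair of values is given below, replicate 1 comes before replicate 2.

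Together the 6 genes held 1001382 counts in replicate 1 and 1297342 in replicate 2. Of all microRNA counts that was 26.7% in replicate 1, with an exact Clopper-Pearson 95% interval of 26.7% to 26.8%. In replicate 2 it was 20.6% (20.5% to 20.6%), which gives a mean of 23.6% ± 4.34. The share was higher in replicate 1 than in replicate 2 by more than counting error. They made up 97.04% of the counts of the 12 genes named Mirlet7 or Mir98 in replicate 1 and 95.9% in replicate 2. The 6 genes with duplicated mature forms (Mirlet7a-1, Mirlet7a-2, Mirlet7c-1, Mirlet7c-2, Mirlet7f-1 and Mirlet7f-2) held the other 30530 and 55372 counts. Reads that fit 2 places are missing from those genes, so this proportion describes assigned reads and not the family's make-up in the tissue. The shares of all microRNA counts are likewise shares of assigned reads. A pair of further genes, named Mir7j and Mir7k in the annotation and let-7j and let-7k in RefSeq, was not counted in these totals. Mir7j had 110 and 149 counts and Mir7k had none in either library.

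The levels kept 1 order in both libraries: Mirlet7i, Mirlet7g, Mirlet7d, Mirlet7b, Mirlet7e and Mir98, with all 15 pairs ordered alike. Mirlet7i had 110313 and 81404 CPM, rank 2 and rank 3 of all microRNA genes by assigned reads. Reads that fit several places are in no count, so the ranks do not order mature microRNAs in the tissue. It lies on chromosome 10 (122985640 to 122985724, minus strand, mm10) and overlaps an exon of the transcribed pseudogene D630033A02Rik. Mirlet7g had 72901 CPM and 66863 CPM and held rank 4 in both libraries. It lies in an intron of Wdr82, a gene for a subunit of histone methyltransferase complexes (chromosome 9, 106178840 to 106178927, plus strand). Both stood far above Mir98, and Mirlet7i exceeded Mir98 46.3-fold in replicate 1 and 34.1-fold in replicate 2.

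Mirlet7d had 43082 and 25310 CPM. It lies on chromosome 13 (48536012 to 48536114, minus strand) and overlaps an exon of the long noncoding RNA gene 6720427I07Rik. Mirlet7b had 28939 CPM and 22860 CPM, and overlaps an exon of the noncoding transcript gene Lncppara (chromosome 15, 85707319 to 85707403, plus strand). The ranges of these genes overlapped, since Mirlet7b in replicate 1 was above Mirlet7d in replicate 2. They are therefore not separated by the spread between the libraries, although Mirlet7d was the higher within each.

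Mirlet7e had 9531 and 6917 CPM. It lies in an intron of Spaca6, a gene for a sperm membrane protein (chromosome 17, 17830352 to 17830444, plus strand). On the opposite strand lies the annotated microRNA gene Gm25927, which had no count on its own strand in either library. Mir98 had 2380 CPM and 2385 CPM and lies in an intron of the ubiquitin ligase gene Huwe1 (chromosome X, 151913214 to 151913321, plus strand). Apart from Mirlet7d and Mirlet7b, neighbours in the order of levels had ranges over the libraries that did not overlap.

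**Figure D2:**
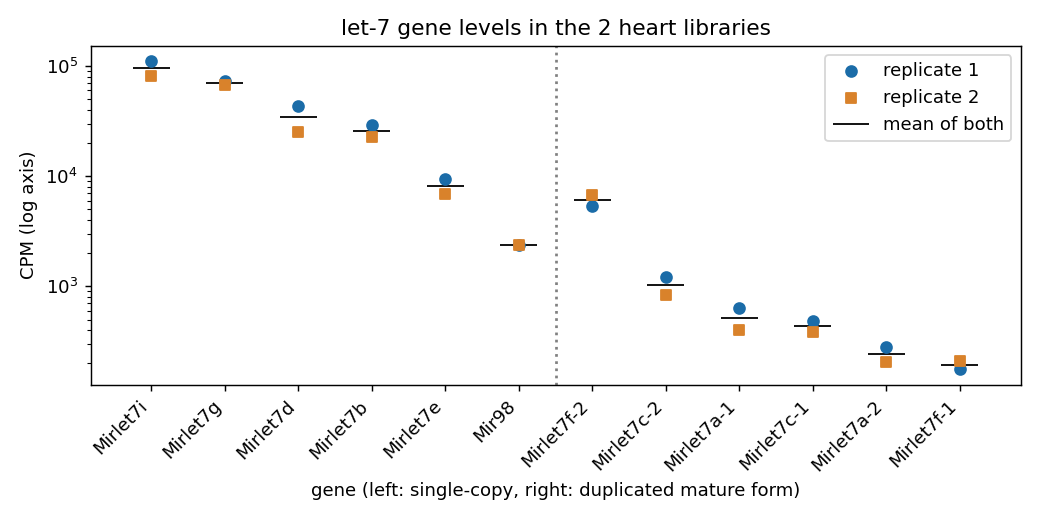
Points give each gene's CPM on a log axis in replicate 1 (circles) and replicate 2 (squares), with the mean as a line, for the 6 single-copy genes on the left and the 6 duplicated ones on the right. Single-copy levels run from 110313 CPM (Mirlet7i) down to 2380 CPM (Mir98), and of the duplicated genes Mirlet7f-2 lies highest, at 5334 and 6745 CPM.

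As ratios within a library, which no scaling can alter, Mirlet7i exceeded Mirlet7g by a log2 ratio of 0.60 in replicate 1 and 0.28 in replicate 2 (mean 0.44 ± 0.22). Mirlet7g exceeded Mirlet7d by 0.76 and 1.40 (1.08 ± 0.45), and Mirlet7d exceeded Mirlet7b by 0.57 and 0.15 (0.36 ± 0.30). Mirlet7b exceeded Mirlet7e by 1.60 and 1.72 (1.66 ± 0.09). Mirlet7e exceeded Mir98 by 2.00 and 1.54 (1.77 ± 0.33). The order was thus common to both libraries while most of the distances were not: the step from Mirlet7g to Mirlet7d differed most between the libraries and the step from Mirlet7b to Mirlet7e least.

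In percentage points, the make-up of the 6-gene total differed mainly in Mirlet7g and Mirlet7d. Mirlet7i and Mirlet7g together took 68.6% of it in replicate 1 and 72.1% in replicate 2. The share of Mirlet7g was 27.3% in replicate 1 (27.2% to 27.4%, exact 95% interval) against 32.5% (32.4% to 32.6%). The share of Mirlet7d was 16.1% (16.1% to 16.2%) and 12.3% (12.2% to 12.4%). Mirlet7i took 41.3% and 39.6%, Mirlet7b 10.8% and 11.1%, Mirlet7e 3.57% and 3.36%, and Mir98 0.891% and 1.16%. As shares of the total, replicate 2 therefore held more Mirlet7g and less Mirlet7d, and the other 4 shares moved by less than 2 percentage points. In proportion to its own size, the small share of Mir98 also rose clearly, from 0.891% to 1.16%.

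**Figure D3:**
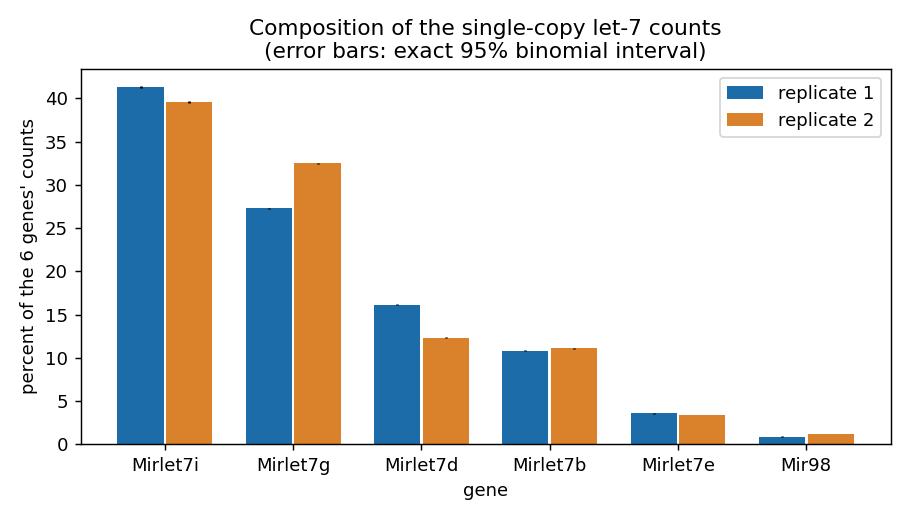
Bars give each gene's percentage of the summed counts of the 6 genes in replicate 1 (blue) and replicate 2 (orange), with exact 95% binomial intervals as error bars. Mirlet7g takes 27.3% and 32.5%, and Mirlet7d 16.1% and 12.3%, in replicates 1 and 2.

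The libraries were then set against each other gene by gene, after TMM scaling of library sizes. The test was an exact two-sided binomial test on counts, adjusted by Benjamini-Hochberg over the 340 detected genes. It compares 2 libraries and not conditions, and takes counting error as the only noise. All 6 members passed it, 4 lower and 2 higher in replicate 2. This count is not a result about the members, because 72.1% of all detected genes passed (37.9% lower and 34.1% higher in replicate 2), and all 44 genes with a mean CPM at or above that of Mir98 passed as well. None of the 6 differed by 2-fold, against 19.7% of detected genes and 9 of those 44. Both of these sets include the 6 members, here and below.

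The sizes say more than the calls. Mirlet7d differed most, with a log2 ratio of replicate 2 over replicate 1 of -0.62 (exact 95% interval -0.63 to -0.61), a 1.54-fold difference. Mirlet7e had -0.32 (-0.34 to -0.30), Mirlet7i -0.30 (-0.30 to -0.29) and Mirlet7b -0.20 (-0.21 to -0.19). Mir98 had 0.15 (0.11 to 0.18), with an adjusted p of 8.9e-14 by the binomial test. Mirlet7g had 0.02 (0.01 to 0.02), with an adjusted p of 1.1e-06 by the binomial test. With total counts as the scaling, which moves every log2 ratio by -0.14, Mirlet7g turned to -0.12 and Mir98 came to 0.0031 and did not pass, so that 5 members were lower and 0 higher. The direction of Mirlet7g thus depends on the scaling, whereas Mir98 kept its sign under each scaling tried but not its call.

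**Figure D4:**
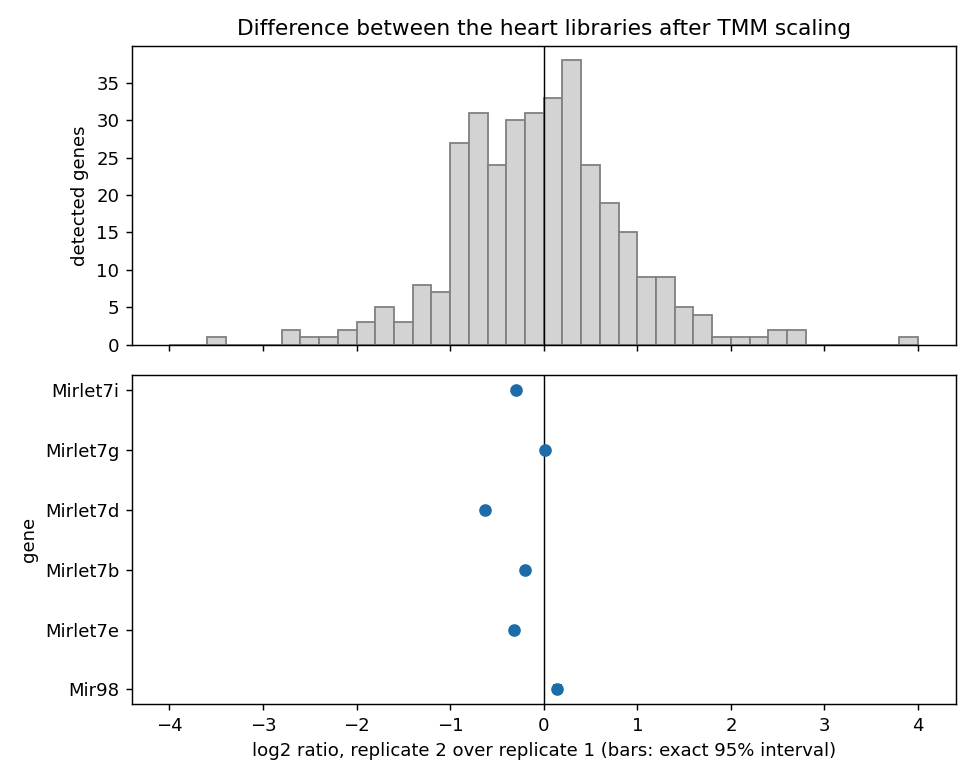
The upper panel is a histogram of the log2 ratio of replicate 2 over replicate 1 for the 340 detected genes, and the lower panel gives the 6 members on the same axis with exact 95% intervals, mostly narrower than the points. The members lie between -0.62 (Mirlet7d) and 0.15 (Mir98), inside the bulk of the histogram.

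The median absolute log2 ratio was 0.25 over the 6 members, 0.54 over all detected genes and 0.42 over the 44 genes as abundant as Mir98 or more. Of those 44 genes, 43 had a larger absolute ratio than Mirlet7g, 36 a larger one than Mir98 and 15 a larger one than Mirlet7d. The signed median was -0.25 over the members and -0.05 over all detected genes. The summed counts of the members had a log2 ratio of -0.23. Values of marker lists stand beside it. The cardiac muscle list (7 genes, 6 detected) made up 0.832% and 1.25% of the counts, and the endothelial list (3 genes, all detected) took 8.97% and 10.1%. These are shares of assigned reads, and the cardiac list holds numbered copies (Mir1a-1, Mir1a-2, Mir133a-1 and Mir133a-2). Whether those copies lack reads that mapped to several places was not tested, so the lists cannot be weighed against each other. The members of either list did not share a direction. Among the cardiac genes Mir208b and Mir499 had log2 ratios of 2.26 and 1.18 between the libraries, whereas Mir208a had -1.34. Of the 6 detected cardiac genes 3 were higher and 1 lower in replicate 2, and the other 2 did not pass. Over all detected genes 34.1% were higher and 37.9% lower. The endothelial sum was nearly all Mir126a (log2 ratio 0.32), and Mir221 of that list had -0.80. The part of cell make-up or of reads with several mapping positions in the let-7 difference was not tested.

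A total of 4 members have other counted microRNA genes within 10 kb on the same strand, and Mirlet7g and Mirlet7i have none. On chromosome 13, Mirlet7a-1 and Mirlet7f-1 lie 2064 and 1714 bases upstream of Mirlet7d. Mirlet7a-1 had 637 and 403 CPM, and Mirlet7f-1 had 177 and 210 CPM. Mirlet7d exceeded Mirlet7a-1 67.6-fold and 62.9-fold, and Mirlet7f-1 242.8-fold and 120.6-fold. Both partners have mature 5p forms found in 2 hairpins, so these ratios count mostly what could be assigned and do not give the balance of the mature forms. Mirlet7a-1 had a log2 ratio between the libraries of -0.52, beside -0.62 for Mirlet7d, and Mirlet7f-1 one of 0.38.

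On chromosome 15, Mirlet7c-2 lies 621 bases upstream of Mirlet7b and had 1228 and 832 CPM, with a log2 ratio between the libraries of -0.42 against -0.20 for Mirlet7b. Mirlet7b exceeded it 23.6-fold and 27.5-fold. The 5p form of Mirlet7c-2 is also found in Mirlet7c-1, so the same limit holds. On chromosome X, Mirlet7f-2 lies 785 bases upstream of Mir98. It had 5334 and 6745 CPM, more than Mir98 in both libraries, and was the only duplicated gene to exceed a member. Its log2 ratio between the libraries was 0.48 against 0.15 for Mir98.

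The chromosome 17 cluster is the only one whose partners are no let-7 genes. Mir99b lies 94 bases upstream of Mirlet7e and Mir125a 367 bases downstream, all inside Spaca6. The miR-99 and miR-125 families are the usual cluster companions of let-7 in animals. Mir99b had 25055 and 12567 CPM, Mirlet7e 9531 and 6917 CPM, and Mir125a 5342 and 6540 CPM. Mir99b was the highest of the 3 and Mir125a the lowest in both libraries. Against the other library the 3 genes differed unequally: the log2 ratio was -0.85 for Mir99b, -0.32 for Mirlet7e and 0.43 for Mir125a. Within a library Mirlet7e exceeded Mir125a by a log2 ratio of 0.84 in replicate 1 (0.81 to 0.86, exact 95% interval) but by 0.08 (0.06 to 0.10) in the other library. It was below Mir99b by log2 ratios of -1.39 and -0.86. Of the 6 genes of the miR-99/100 and miR-125 list, 3 were higher and 3 lower in replicate 2. Over all detected genes 34.1% were higher and 37.9% lower by the same test. The list had a median log2 ratio of 0.10 against -0.05 over all detected genes.

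**Figure D5:**
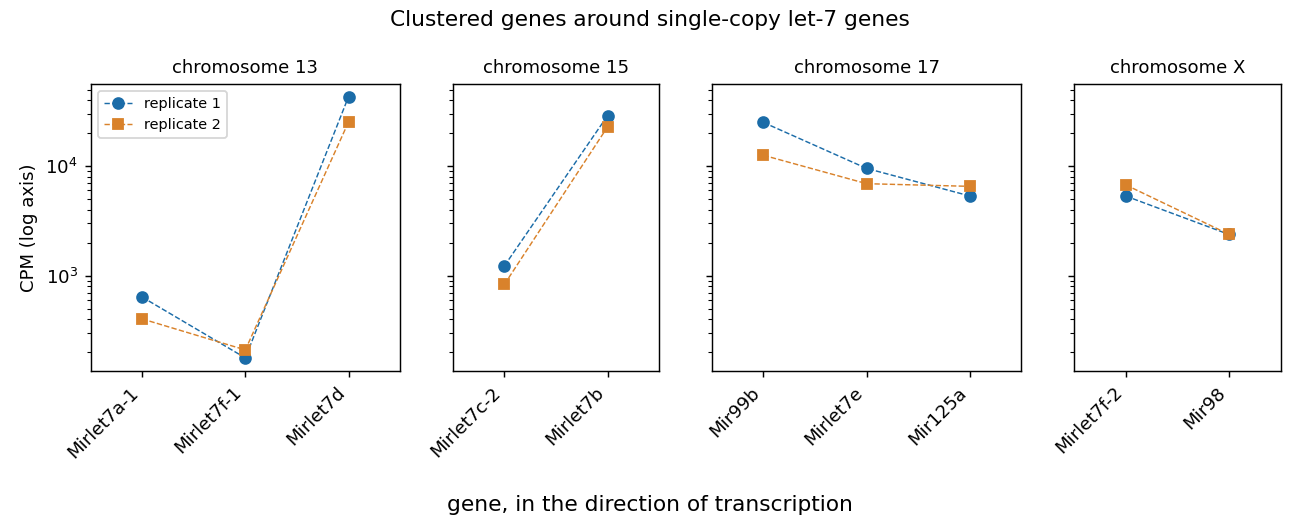
Each panel shows 1 cluster, with genes in the direction of transcription on the horizontal axis and CPM on a log axis, circles and blue for replicate 1, squares and orange for replicate 2. Mirlet7d and Mirlet7b stand above their upstream let-7 neighbours in both libraries, Mir98 stands below Mirlet7f-2, and on chromosome 17 the lines of the libraries cross between Mirlet7e and Mir125a.

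Over the 6 duplicated genes the summed counts had a log2 ratio of 0.25 between the libraries, opposite in sign to the -0.23 of the single-copy genes. That sum was mostly Mirlet7f-2, which took 65.5% of it in replicate 1 and 76.8% in replicate 2. The gene-wise median of the duplicated genes was -0.26, with 2 higher and 4 lower in replicate 2. Over all detected genes 34.1% were higher and 37.9% lower. The median and sum of the duplicated genes thus differ in sign. The median lay close to the -0.25 of the single-copy genes.

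Outside the let-7 family, the detected genes nearest to each member by Euclidean distance of log2 CPM over the 2 libraries were named from 328 candidates. For Mirlet7i the nearest was the endothelial gene Mir126a, at a distance of 0.44, with 88956 and 100563 CPM. For Mirlet7g it was Mir99a (0.64), for Mirlet7d Mir23a (0.82) and for Mirlet7b Mir30d (0.47). For Mirlet7e it was Mir191 (0.19), with Mir451a next (0.25), and for Mir98 it was Mir181d (0.15), with Mir411 next (0.20). The second nearest of the other 4 members were Mir378a for Mirlet7i (0.83), Mir126a for Mirlet7g (0.66), Mir99a for Mirlet7d (0.98) and Mir23a for Mirlet7b (0.88). With 2 libraries such nearness says that the levels are alike and little more.

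The opposite strand of the members was nearly empty. Opposite-strand reads numbered 0 in both libraries for Mirlet7i, Mirlet7g, Mirlet7d and Mirlet7e, 5 and 2 for Mirlet7b and 1 and 0 for Mir98. The column for both strands matched the gene-strand column within 5 counts for 5 of the 6 genes. For Mirlet7e it held 0 in each library against 35728 and 43615 on the gene strand, where the annotation of Gm25927 covers the whole hairpin on the other strand. A table read from the column for both strands would therefore list Mirlet7e as absent. The loss was not particular to Mirlet7e. Mir126a had 6 and 15 counts in that column against 333445 and 634127 on the gene strand. Mir30e had 0 in each library against 24425 and 85826.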

How the data were processed

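Raw counts of reads for each microRNA gene were deposited by the authors, 1 table per heart library (mm10, GENCODE M21, per the text deposited beside the tables). For the aligner and the counter, the sources used here give neither name nor settings. The 3 count columns have no header; from their values they were read as both strands, gene strand and opposite strand, and the gene strand was used. The 4 summary entries, which held 57.6% of reads in replicate 1 and 63.0% in replicate 2, stayed out of library sizes and tests. Totals were 3748432 and 6305782 counts.

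CPM was computed over all 2202 genes. Libraries were compared with an exact two-sided binomial test (scipy 1.17.1) against TMM-scaled sizes (edgeR 4.0.16), adjusted by Benjamini-Hochberg at 0.05 over 340 genes with at least 10 counts in both. Log2 ratios used a prior of 0.5 counts. edgeR's quasi-likelihood test needs a contrast between groups, and 1 group has none. The limit of detection was 3 counts, and intervals are exact Clopper-Pearson at 95%. The comparison was also run on simulated counts with counting error only and total counts as library sizes. That is the noise the test assumes, so the run checked the computation and not the test's behaviour on real libraries. Named genes were the members, other let-7 genes, same-strand neighbours within 10 kb, seed sharers, miR-99/100 and miR-125 genes, marker lists and the 2 nearest genes per member. The members and lists were chosen with earlier results of these data known. Marker lists for smooth muscle, erythroid, leukocyte, hepatocyte and skeletal muscle cells were also summed. They took 4.48% and 5.33%, 1.02% and 0.885%, 0.196% and 0.219%, 0.00579% and 0.00777%, and 0.00285% and 0.00211% of the counts in replicates 1 and 2. Alternatives were DESeq2 1.42.0 size factors, total counts, TMM without let-7 genes, other count minimums, other denominators, the column for both strands and single libraries.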

Additional observations from a re-analysis of the deposited data

Results flagged for a closer look

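Mirlet7b had 5 reads on the strand opposite to the gene in replicate 1, in a column that no comparison used, which is above the 3 counts that a count of 0 allows. Replicate 2 had 2 such reads.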

How the results depend on the processing

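Both libraries form 1 group, so counting error and 2 values per gene limit every statement. Of the 128 values recomputed under alternatives, 105 were counted as kept. Ratios between the libraries had to keep their direction and their side of the threshold. Levels, shares and ratios within a library had to move by less than 1 SD. Numbers of genes only had to stay within a fixed fold of the main number, so 5 members in place of 6 counted as kept. This tally is no measure of robustness, since many of these values could not move. Single-library values always lie within 1 SD of the mean of 2. The count minimums kept the same TMM sizes, so the members' log2 ratios were the same by construction. With total counts Mirlet7g reversed from 0.02 to -0.12, Mir98 fell from 0.15 to 0.0031 (adjusted p 0.899 by the exact binomial test) and the number of members higher in replicate 2 went from 2 to 0. This follows from the shift of -0.14 that total counts give every gene. DESeq2 size factors, TMM without let-7 genes and both count minimums (no filter, and at least 100 counts) changed no direction or call of a member. With both strands 5 members were left to test, since Mirlet7e has no count there. Levels depend on the denominator by construction. With let-7 genes out of the denominator the counts of the 6 equalled 31.5% of the remaining genes' counts, a ratio and not a share. Levels on that denominator became 127927 CPM (Mirlet7i), 92858 CPM (Mirlet7g), 34518 CPM (Mirlet7b), 10979 CPM (Mirlet7e) and 3161 CPM (Mir98). With all reads as the denominator the share was 9.47%, with 38467, 27840, 13823, 10370, 3302 and 946 CPM for Mirlet7i, Mirlet7g, Mirlet7d, Mirlet7b, Mirlet7e and Mir98. With both strands it was 31.3%, with 131314, 95817, 46800, 35490, 0 and 3269 CPM in the same order. The column for both strands lacks reads of other abundant genes, so this is no second estimate of the same share. Mir126a had 6 and 15 counts there, against 333445 and 634127 on the gene strand. In single libraries the share ran from 20.6% to 26.7% and each level lay within 1 SD of its mean, as 2 values always do. No paired analysis was possible because there is only 1 group.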
